A study of Homo sapiens with 16 samples.

Results

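The 10 genes described here are CIITA and 9 genes of the MHC class II pathway, namely CD74, HLA-DRA, HLA-DRB1, HLA-DPA1, HLA-DPB1, HLA-DQA1, HLA-DQB1, HLA-DMA and HLA-DMB. They were taken by gene symbol from the 62714 genes of the count files, without use of their values. All 10 passed the filter on low counts in every comparison. They were measured by RNA-seq in 16 libraries of 4 human B-cell lymphoma lines, all of them established lines. A lentiviral CRISPR-Cas9 vector with 4 guides was directed at CREBBP in 1 pool of each line and at the AAVS site, the control, in another. The labels give the genotypes as CREBBP -/- and AAVS -/-, but the targeted cells were kept as pools and not as single clones, and all of them carry the vector. Each pool was cultured for 4 h without IL4 (baseline) or with 10 ng/ml of IL4, which gave 4 groups of 4 libraries, called AAVS or CREBBP with the suffix baseline or IL4, and the line was the replicate. Line 1 was SU-DHL4 and line 4 was DOHH2. The labels conflict on which of the remaining lines was OCI-LY7 and which SU-DHL10, and these are called line 2 and line 3. The study asked whether CREBBP status alters the induction of genes by IL4.

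MHC class II molecules are pairs of an alpha and a beta chain (HLA-DR, HLA-DP and HLA-DQ) that present peptides from internalised proteins to CD4+ T cells. The chains assemble around the invariant chain, CD74, which blocks the peptide groove until HLA-DM, the pair of HLA-DMA and HLA-DMB, exchanges its last fragment for a peptide. CIITA is the master coactivator of all these genes. It does not bind DNA itself but docks on RFX, CREB and NF-Y factors that occupy the X1, X2 and Y boxes upstream of each gene, and it recruits acetyltransferases, among them CREBBP. Germinal centre lymphomas often lose class II expression, and IL4 is a classical inducer of class II on B cells.

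The upstream sequences are shown first because the X and Y boxes are where CIITA is known to dock, although the letters searched were not found in all promoters. RefSeq promoters (GRCh38.p14, 250 bases before to 50 bases after the start) were at hand for 8 of the 10 genes, not for CIITA and HLA-DRA. The core of the X1 box was searched as CNAGNNAC, the core of the CRE in the X2 box as TGACG and the Y box as ATTGG, each on both strands and counted whether or not it overlapped another match. The X1 core was found in 7 of the 8 promoters (39.3% of all 35116 promoters), TGACG in 4 of 8 (24.6%) and ATTGG in 7 of 8 (34.6%). Each of these letters is thus common by itself. An X1 core followed on the same strand by ATTGG, with starts 25 to 50 bases apart, was found in 4 of 8 genes, HLA-DRB1, HLA-DQA1, HLA-DQB1 and HLA-DMA, against 0.926% of all promoters. The motifs were chosen from knowledge of these very promoters, so that the count is a description. In the stretches below the capitals mark the X1 core and, where it lies in that range, the Y box, and each runs 5′ to 3′ on the strand of its gene.

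HLA-DRB1 (chr6:32589878-32589935, minus strand): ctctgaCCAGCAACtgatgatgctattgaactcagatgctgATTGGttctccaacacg

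HLA-DQA1 (chr6:32637296-32637354, plus strand): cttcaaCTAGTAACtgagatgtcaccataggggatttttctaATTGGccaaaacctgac

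HLA-DQB1 (chr6:32666729-32666786, minus strand): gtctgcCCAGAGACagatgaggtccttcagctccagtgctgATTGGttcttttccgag

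HLA-DMA (chr6:32953160-32953218, minus strand): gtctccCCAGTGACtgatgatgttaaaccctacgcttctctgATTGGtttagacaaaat

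CD74 (chr5:150412947-150412999, minus strand): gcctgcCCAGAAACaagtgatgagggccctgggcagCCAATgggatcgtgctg

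HLA-DMB (chr6:32941066-32941124, minus strand): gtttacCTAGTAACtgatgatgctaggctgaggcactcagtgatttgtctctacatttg

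HLA-DPA1 (chr6:33073698-33073756, minus strand): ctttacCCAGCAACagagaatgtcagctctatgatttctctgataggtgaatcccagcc

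In the first 4 stretches the X1 core and the Y box started 35 or 36 bases apart. CD74 had its Y box as the complement, CCAAT, 30 bases after the start of the X1 core. HLA-DMB and HLA-DPA1 had the X1 core without these letters of a Y box in range, and for HLA-DPA1 this was the second of its 2 RefSeq starts. The promoter of HLA-DPB1 held ATTGG without an X1 core.

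**Figure D1:**
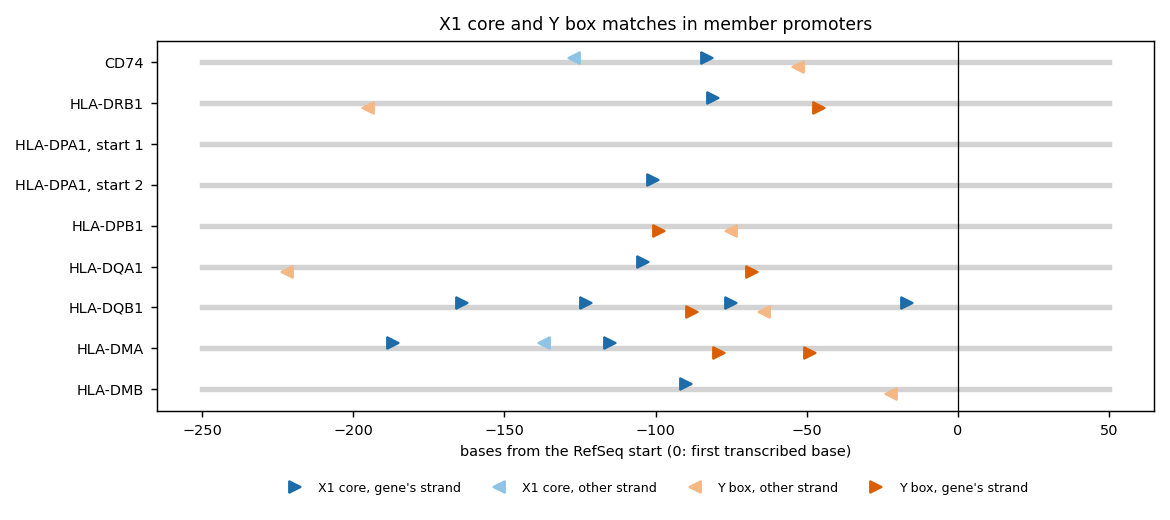
Matches to the X1 core and the Y box along the RefSeq promoters of 8 genes (x axis: bases from the start, grey bar: the 300 bases searched, arrow: strand of the match). HLA-DPA1 has 2 starts. In HLA-DRB1, HLA-DQA1, HLA-DQB1 and HLA-DMA an X1 core precedes a Y box by 35 or 36 bases on the strand of the gene.

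CIITA lies on chromosome 16 of GRCh38 (10866222 to 10943021, plus strand) and CD74 on chromosome 5 (150401637 to 150412969, minus strand). The HLA genes lie on chromosome 6, from HLA-DRA (starting at 32439878) to HLA-DPB1 (ending at 33089696). All 10 are protein-coding. Some of the values are uncertain at the level of counting. HLA-DPA1 and HLA-DPB1 overlap on opposite strands, HLA-DQB1 overlaps HLA-DQB1-AS1, CIITA overlaps DEXI and HLA-DMA overlaps BRD2, and whether the counting of these libraries used the strand is not given in the sources used here. HLA-DRB1 and HLA-DRB5, HLA-DQA1 and HLA-DQA2, and HLA-DQB1 and HLA-DQB2 are pairs of related genes. Whether reads were divided within these pairs was not tested. The HLA genes differ between people, so that a line whose alleles differ from the reference can be undercounted.

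The libraries held 19649735 to 61981976 counts, with the lowest group median in AAVS IL4 (29790813). CREBBP transcript was present in all libraries, at 205 to 359.6 CPM (a gene's share of the counts of its library, scaled to the same total in each library) for AAVS baseline, 190.5 to 379 for AAVS IL4, 187 to 278 for CREBBP baseline and 69.9 to 245 for CREBBP IL4. These ranges overlapped, so that the transcript does not check the genotype labels. The summed level of 8 B-cell markers was 2740.5 to 5395 CPM in all groups and that of 8 germinal centre markers 859 to 1611 CPM. The 4 libraries labelled AAVS IL4 stood apart from the other 12. There, 9 markers of mature B cells outside the germinal centre summed to 678 to 3977 CPM, with 9 of 9 reaching 0.5 CPM in a library, and in the other groups to 40.3 to 208 CPM, with 6 of 9. Among them IGHM, the heavy chain of IgM, was at 138 to 1711 CPM against at most 0.0696, and IGHD at 6.98 to 126 CPM against 0 in the other 12. In the same libraries 12 T-cell markers summed to 125 to 283 CPM (89.6 to 182 elsewhere), with 12 reaching that level against 6. The 12 myeloid and dendritic markers summed to 14.0 to 58.2 CPM (2.45 to 14.9), with 7 against 4 to 7, and 5 NK markers to 4.48 to 21.9 CPM (0.533 to 2.25), with 5 against 1 or 2. The 4 erythroid markers summed to 3.46 to 20.0 CPM (0 to 0.87) and 8 fibroblast and endothelial markers to 3.12 to 42.2 CPM (0.199 to 51.2). LYZ of myeloid cells was at 2.56 to 15.4 CPM against at most 0.049, and HBB of red cells at 1.74 to 10.7 CPM against at most 0.646. The summed small RNA genes RN7SK, RN7SL1 and RN7SL2 were at 69662 to 106810 CPM in AAVS IL4, 50862 to 68674 CPM in AAVS baseline and 44110 to 180940 CPM in the CREBBP groups, and 4 housekeeping genes at 5750 to 18335 CPM in AAVS IL4 and 10872 to 24515 CPM elsewhere. Whether the libraries labelled AAVS IL4 hold the same cells as the other libraries of their lines was not tested, and the group is named by its labels. Normal B cells, monocytes and dendritic cells all express class II, so these values stand beside each result in which the AAVS IL4 libraries take part. Those are IL4 against baseline in the AAVS pools, CREBBP against AAVS pools with IL4, and the difference in response. These comparisons share the 4 libraries, and leaving the libraries out would leave out the arm itself. The other 2 comparisons, IL4 in the CREBBP pools and CREBBP against AAVS at baseline, do not use them. In bulk samples fewer cells of a type and less RNA per cell cannot be told apart. CPM was taken on library totals, while the tests used TMM factors computed anew for each comparison. TMM-scaled CPM used factors computed once over all 16 libraries. These were 0.787 to 1.17 except for the CREBBP IL4 library of line 2 (0.725, against 1.07 at its baseline). Where TMM-scaled CPM changes a statement its value is given too.

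Together the 10 genes took 0.362% to 0.637% of all counts in AAVS baseline, 0.584% to 1.61% in AAVS IL4, 0.319% to 0.608% in CREBBP baseline and 0.232% to 0.612% in CREBBP IL4. Per kb of merged exons, the mean levels at AAVS baseline fell into 3 tiers. HLA-DRA (736 ± 297 CPM per kb, SD, n = 4 lines) and CD74 (576 ± 157) were the highest, did not differ from each other beyond their spread, and in each line were above all other members. The next 7 were HLA-DQB1 (48.1 ± 35.1), HLA-DPA1 (47.7 ± 6.84), HLA-DQA1 (35.7 ± 22.9), HLA-DRB1 (35.1 ± 20.8), HLA-DMA (29.8 ± 6.78), HLA-DMB (29.8 ± 11.5) and HLA-DPB1 (27.1 ± 9.43), and neighbours in this order overlapped. CIITA was the lowest at 9.72 ± 3.23 CPM per kb, although line 2 had less HLA-DQB1 (0.767) and HLA-DQA1 (2.3) than CIITA in any line. Within line 2 HLA-DRB1 (12.5) was also below CIITA (14.5). The low place of CIITA rests on its merged exons of 22553 bases, the longest of the 10. By CPM it had 219, above HLA-DPB1 (141), HLA-DMB (138), HLA-DRB1 (108) and HLA-DMA (75.2). With the length of the longest transcript in place of merged exons, CD74 (852 CPM per kb) came before HLA-DRA, and CIITA was at 13.6.

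**Figure D2:**
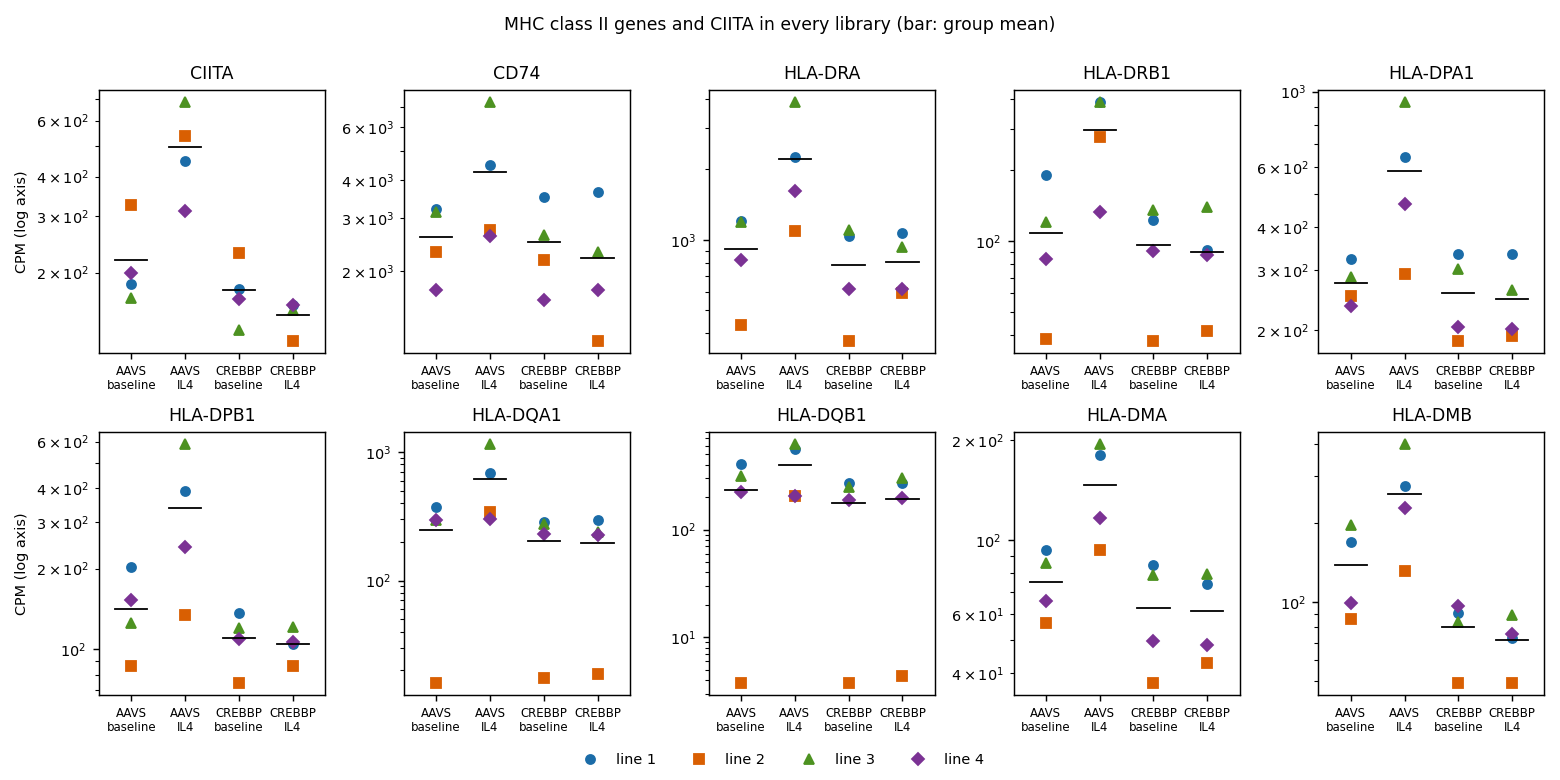
CPM (log axis) of the 10 genes in each of the 16 libraries by group, with lines 1 to 4 as symbols and the group mean as a bar. By CPM the AAVS IL4 library is above AAVS baseline in 4 of 4 lines for 9 of 10 genes (17.5% of all genes). Line 2 is far below the others for HLA-DQA1 and HLA-DQB1 outside AAVS IL4.

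CIITA, the coactivator, had 184, 327, 167 and 199 CPM in lines 1 to 4 at AAVS baseline and 448, 537, 686 and 312 CPM with IL4. In the CREBBP pools it had 177, 230.3, 132 and 166 CPM untreated and 158.5, 122, 152 and 158 CPM with IL4. The 4 AAVS IL4 libraries were each the highest of their line, by 1.57-fold in line 4 up to 4.11-fold in line 3 over baseline, while the CREBBP pools were at 0.528-fold to 1.16-fold with IL4 (0.78 to 0.98 by TMM-scaled CPM). The group means were 219 ± 72.9 and 496 ± 157 CPM (SD, n = 4) in the AAVS pools and 176 ± 40.9 and 148 ± 17.5 CPM in the CREBBP pools.

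CD74, the invariant chain, was the most abundant of the 10 by counts. It had 3217, 2321, 3156 and 1737 CPM at AAVS baseline and 4497, 2738, 7267 and 2627 CPM after IL4. The CREBBP pools held 3539.8, 2189, 2644 and 1612 CPM untreated and 3652, 1173, 2315 and 1742 CPM with IL4. Line 3 had the widest fold with IL4 in the AAVS pools (2.3). In the CREBBP IL4 library of line 2, CIITA, CD74 and HLA-DRA were at 0.528-fold, 0.536-fold and 1.62-fold of baseline by CPM, and at 0.78-fold, 0.791-fold and 2.39-fold by TMM-scaled CPM.

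HLA-DRA, the alpha chain shared by all DR molecules, had 1209.8, 432, 1197 and 821 CPM at AAVS baseline and 2252, 1095, 3875 and 1614 CPM after IL4. The CREBBP pools held 1043, 368, 1099 and 619.7 CPM untreated and 1066, 596, 929 and 615 CPM with IL4. The AAVS IL4 libraries were at 1.86-fold to 3.24-fold of baseline (1.55 to 2.62 by TMM-scaled CPM), and lay above the CREBBP IL4 libraries without overlap by CPM but not by TMM-scaled CPM. HLA-DRB1, its main beta chain, had 190.1, 38.5, 120.3 and 84.1 CPM at AAVS baseline and 389, 276, 388 and 133 CPM with IL4. In the CREBBP pools HLA-DRB1 had 123, 37.5, 135 and 90.5 CPM untreated and 91.6, 41.5, 139.6 and 87.0 CPM with IL4. Line 2 was the lowest in each group except AAVS IL4, where its 7.16-fold step brought it above line 4.

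HLA-DPA1 had 324, 251, 285 and 235 CPM at AAVS baseline and 641, 292, 932 and 468 CPM with IL4, against 333, 185, 301 and 205 CPM and 333, 192, 262 and 201 CPM in the CREBBP pools. Its partner HLA-DPB1 had 203, 85.95, 125 and 152 CPM at AAVS baseline and 391, 134, 588 and 240.5 CPM with IL4, against 137, 74.2, 119 and 108 CPM and 104, 86.3, 121 and 106 CPM in the CREBBP pools. Both DP chains had their widest fold in line 3 of the AAVS pools (3.26 and 4.71), and within the CREBBP pools their folds with IL4 lay between 0.761 and 1.16 (0.737 and 1.72 by TMM-scaled CPM).

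HLA-DQA1 had 373, 15.8, 298 and 297 CPM at AAVS baseline and 689, 339.6, 1154 and 299 CPM with IL4. In the CREBBP pools it had 283, 17.3, 275 and 231 CPM untreated and 295, 18.7, 239 and 226 CPM with IL4. HLA-DQB1 had 405, 3.75, 312 and 221 CPM at AAVS baseline and 557, 203, 621 and 207 CPM after IL4. The CREBBP pools held 269, 3.8, 246 and 188 CPM and 273, 4.37, 298 and 197 CPM of HLA-DQB1. The DQ chains thus differed between lines more than any other pair. Line 2 held almost none in 3 of its 4 libraries and then stepped up 21.4-fold for HLA-DQA1 and 54.0-fold for HLA-DQB1 in its AAVS IL4 library, whereas line 4 stayed level (1.0-fold and 0.938-fold).

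HLA-DMA had 93.4, 56.4, 85.2 and 65.8 CPM at AAVS baseline and 181, 93.3, 195 and 117 CPM with IL4. In the CREBBP pools it had 84.1, 37.2, 78.6 and 49.9 CPM untreated and 74.2, 42.7, 79.3 and 48.5 CPM with IL4. Of the 10 genes HLA-DMA had the most even folds with IL4 in the AAVS pools, from 1.66 to 2.28. HLA-DMB had 169, 86.0, 195 and 99.3 CPM at AAVS baseline and 276, 131, 398 and 227 CPM with IL4. Its CREBBP pools had 90.8, 49.0, 83.7 and 96.8 CPM untreated and 73.1, 49.0, 89.5 and 75.5 CPM with IL4. Lines 1 to 3 had about the same ratio of HLA-DMB to HLA-DMA per kb in both CREBBP groups (0.539 to 0.72), below that of their own AAVS baseline libraries (0.991, 0.834 and 1.25), while in line 4 the ratio was 1.06 in CREBBP baseline and 0.824 in AAVS baseline.

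**Figure D3:**
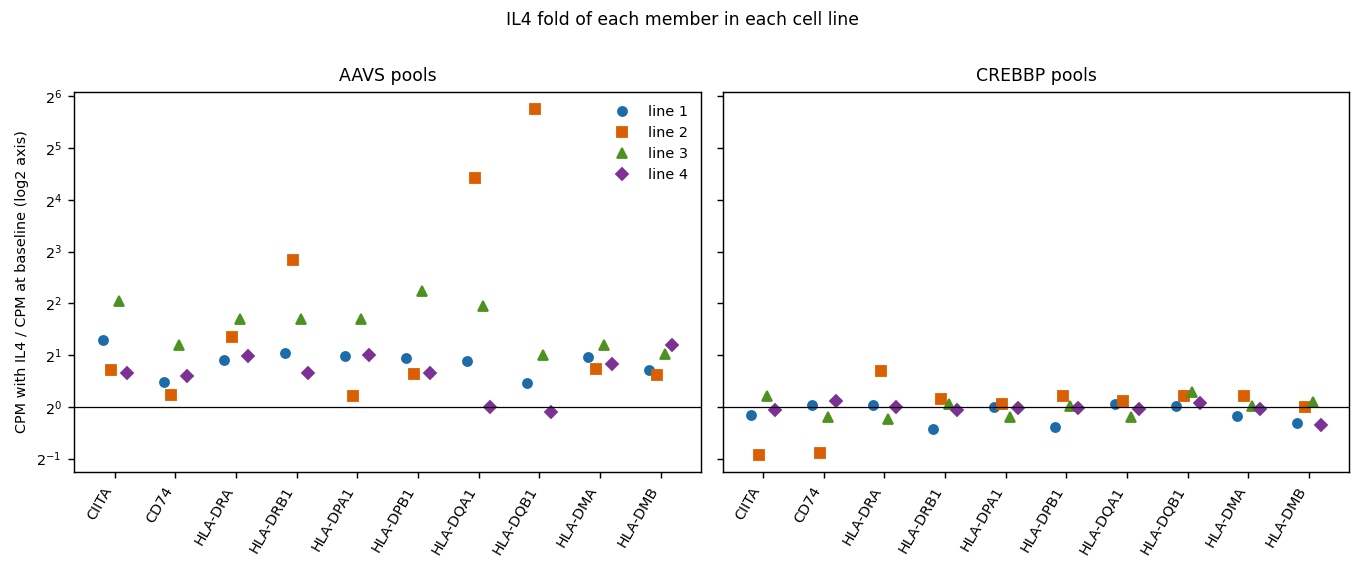
CPM with IL4 over CPM at baseline for each gene and line (log2 axis, the horizontal line marks no change), in the AAVS pools on the left and the CREBBP pools on the right. The AAVS folds lie from 0.938 to 54.0 with line 2 far out for HLA-DQA1 and HLA-DQB1, and the CREBBP folds lie from 0.528 to 1.62 (0.716 to 2.39 by TMM-scaled CPM, not drawn).

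The libraries labelled AAVS IL4 were compared with AAVS baseline, which by the labels is the response of control cells to IL4. HLA-DMA was the 1 member of 10 called (log2 fold change 0.86, standard error 0.16, adjusted p = 0.0475 by the quasi-likelihood test of edgeR, adjusted over all genes), where 2.39% of the 20310 genes tested were called higher. The other 9 had fitted log2 fold changes from 0.57 (CD74) to 1.62 (HLA-DQA1), with CIITA at 1.11 (standard error 0.25, adjusted p = 0.0842 from edgeR) and HLA-DRA at 1.16 (standard error 0.24, adjusted p = 0.0652 from edgeR). The median over the 10 was 1.08 on the log2 scale against 0.014 over all genes, and 7 members had an unadjusted p under 0.05 in this direction (12.4% of all genes). By CPM, 9 of 10 were higher in 4 of 4 lines (17.5% of all genes) and HLA-DQB1 was higher in 3, but 0 of 10 had IL4 libraries that all lay above the baseline libraries (6.34% of all genes). The widest standard errors, 0.74 for HLA-DQA1 and 0.98 for HLA-DQB1, belong to the genes that line 2 sets apart, and without line 2 their log2 fold changes were 0.83 and 0.33 (2.25 and 1.91 without line 4). The call of HLA-DMA was lost without any 1 of the 4 lines (adjusted p = 0.0917 to 0.4 from edgeR), where 0.31% to 4.93% of all genes were called. DESeq2 called 7 of the 10 (10.2% of all genes). The part of the marker genes that stand higher in the AAVS IL4 libraries was not tested.

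With IL4 in the CREBBP pools, 0 of 10 members were called, as were 0 of 18282 genes (0.0%) with edgeR, and DESeq2 called 1 gene (0.00547%), which was no member. No member had an unadjusted p under 0.05, against 1.44% of all genes in the higher and 1.31% in the lower direction. The fitted log2 fold changes lay from -0.19 (CIITA, standard error 0.15) to 0.17 (HLA-DQB1, standard error 0.18), with a median of 0.00047 against -0.038 over all genes. HLA-DQB1 was higher in 4 of 4 lines by CPM (4.59% of all genes), at 1.01-fold to 1.21-fold, but in 3 lines by TMM-scaled CPM, by which CIITA was lower in 4 of 4 (6.25%). At these standard errors, of 0.15 to 0.27 over the 10 genes, small changes were not detectable. The summed markers of other cell types in these libraries lie in the ranges given above for libraries outside AAVS IL4.

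CREBBP against AAVS pools at baseline asked for the effect of CREBBP targeting alone, in libraries outside the AAVS IL4 group. Again 0 of 10 members were called by edgeR, as were 0 of 18936 genes (0.0%), while 6.34% of all genes had an unadjusted p under 0.05 in the higher and 6.45% in the lower direction. DESeq2 called 511 of the 15999 genes to which it gave an adjusted p (3.19%), and 0 members. The member with the smallest p was HLA-DMB, at -0.64 on the log2 scale (standard error 0.22, unadjusted p = 0.0133, adjusted p = 0.300 from edgeR), at 0.429-fold to 0.976-fold over the lines by CPM and 0.487-fold to 1.04-fold by TMM-scaled CPM. CIITA, HLA-DRA, HLA-DPB1, HLA-DMA and HLA-DMB were lower in 4 of 4 lines by CPM, so 5 of 10 against 14.9% of all genes, and by TMM-scaled CPM this held for 1, CIITA (10.9% of all genes). CIITA itself was at 0.705-fold to 0.964-fold (log2 fold change -0.19, standard error 0.18, adjusted p = 0.688 from edgeR). The median of the 10 was -0.17 against -0.025 over all genes, and 0 of 10 had groups without overlap (1.06% of all genes in the lower direction).

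CREBBP against AAVS pools with IL4 gave the most calls. CIITA fell to 0.222-fold to 0.507-fold over the lines by CPM (log2 fold change -1.42, standard error 0.26, adjusted p = 0.0346 from edgeR), HLA-DMB to 0.225-fold to 0.373-fold (-1.50, standard error 0.27, adjusted p = 0.0331) and HLA-DRB1 to 0.150-fold to 0.654-fold (-1.45, standard error 0.31, adjusted p = 0.0480). These are 3 of 10 members, where 3.42% of the 19581 genes tested were called lower. The remaining 7 had fitted log2 fold changes from -0.66 (CD74) to -1.72 (HLA-DQA1) and adjusted p-values from 0.0608 (HLA-DMA) to 0.288 (HLA-DQB1) from edgeR. Without line 2 the log2 fold changes of HLA-DQA1 and HLA-DQB1 were -1.09 and -0.51, and without line 4 that of HLA-DQB1 was -2.06. By CPM all 10 were lower in 4 of 4 lines (31.6% of all genes), and for 6, CIITA, HLA-DRA, HLA-DPB1, HLA-DQA1, HLA-DMA and HLA-DMB, the 4 CREBBP IL4 libraries lay below the 4 AAVS IL4 libraries without overlap (12.9% of all genes). By TMM-scaled CPM 8 were lower in 4 of 4 lines (21.3%), without HLA-DPA1 and HLA-DQB1, and 2, CIITA and HLA-DMB, did not overlap (8.53%). At an unadjusted p under 0.05 there were 8 of 10 (14.9%), and DESeq2 called 7 (21.2%). The median was -1.32 against -0.053 over all genes. HLA-DMA, which was not called, had ratios of 0.407-fold to 0.458-fold by CPM and 0.451-fold to 0.70-fold by TMM-scaled CPM. Without line 1, line 3 or line 4 no member was called, where 0.524%, 0.124% and 1.63% of all genes were called in either direction. Without line 2 there were 4, namely CIITA, HLA-DPB1, HLA-DMA and HLA-DMB, where 12.4% of all genes were called. The marker levels that set the AAVS IL4 libraries apart move with this comparison too, and their part in it was not tested.

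**Figure D4:**
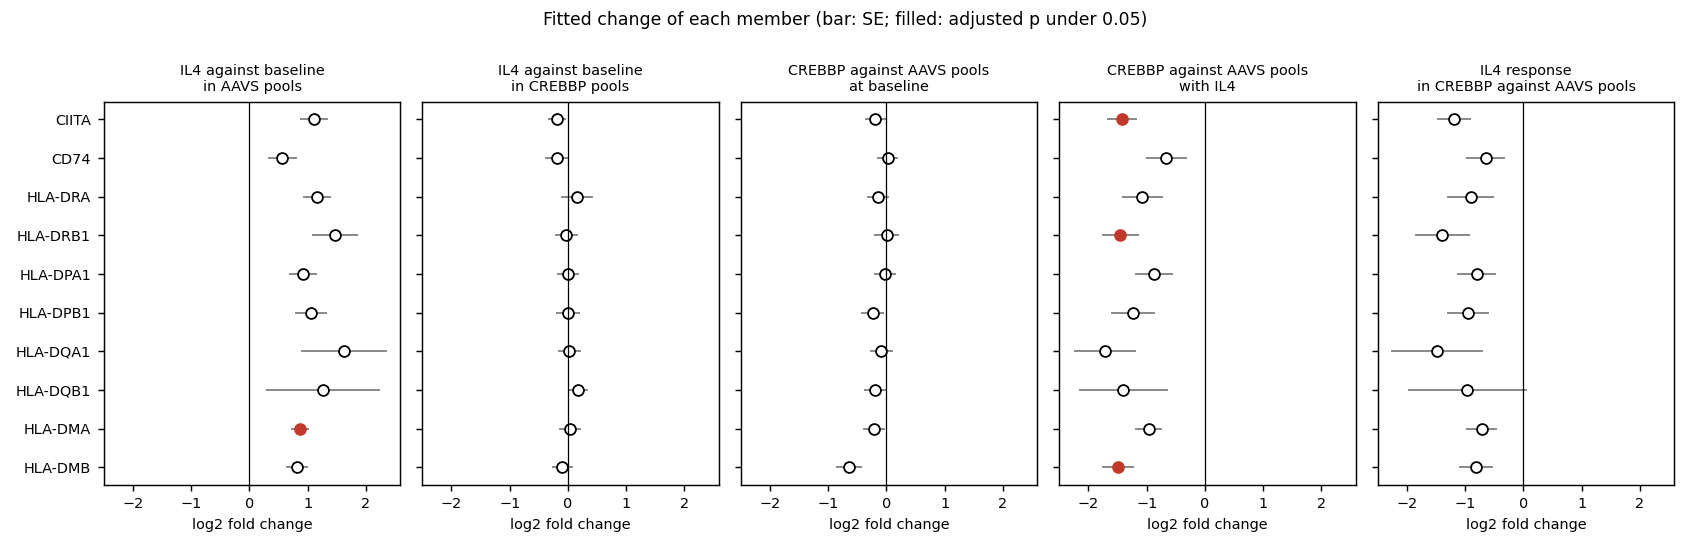
Fitted log2 fold change of each gene in the 5 comparisons, with the standard error as a bar and genes with an adjusted p under 0.05 filled. HLA-DMA is filled for IL4 in the AAVS pools, and CIITA, HLA-DRB1 and HLA-DMB for CREBBP against AAVS pools with IL4. In each of the 3 panels that use the AAVS IL4 libraries all 10 genes lie on the same side of 0. In the panel for baseline HLA-DMB lies at -0.64 (standard error 0.22).

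The IL4 response was then compared between CREBBP and AAVS pools in 1 model of all 16 libraries. No member was called out of 10 (0.638% of 21932 genes were called with edgeR), while 7 had an unadjusted p under 0.05 in the lower direction (7.84% of all genes) and DESeq2 called 2, CIITA and HLA-DRB1 (5.67% of the 19380 genes with its adjusted p). The difference for CIITA was -1.19 on the log2 scale (standard error 0.29, adjusted p = 0.102 from edgeR), and the 10 differences lay from -0.65 (CD74) to -1.48 (HLA-DQA1) all below 0 (47.5% of all genes), with a median of -0.93 against 0.051 over all genes. HLA-DQB1 was at -0.97, with -0.32 without line 2 and -1.68 without line 4, and HLA-DQA1 was at -2.18 without line 4. For the class II genes, a smaller response in the CREBBP pools was therefore not called by this test.

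The genes related to the DQ and DRB members followed an uneven pattern over the lines. HLA-DQA2 was at 0 to 0.0573 CPM in lines 1, 3 and 4 outside AAVS IL4 and at 43.3, 29.4 and 40.8 CPM in their AAVS IL4 libraries. In line 2 it was at 39.8 and 34.0 CPM in the AAVS pool without and with IL4 and at 44.4 and 56.2 CPM in the CREBBP pool. HLA-DRB5 showed the opposite, with 90.1 to 213 CPM in all libraries of lines 1, 3 and 4, but 4.34, 5.55 and 5.44 CPM in line 2 outside AAVS IL4 and 108 CPM in its AAVS IL4 library. In each line the AAVS IL4 library thus held the related genes that its other libraries lacked or nearly lacked. HLA-DQB2 was at 0 to 0.103 CPM in lines 1, 3 and 4 and at 0.721 to 1.54 CPM in line 2 outside AAVS IL4, against 1.53 to 4.06 CPM in the 4 AAVS IL4 libraries. HLA-DQB1-AS1 was at 0 in line 2 except for 6.51 CPM in AAVS IL4. These levels are values of single libraries without a test. Outside AAVS IL4, lines 1, 3 and 4 shared this pattern of class II genes, and whether they are 3 distinct lines was not tested.

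**Figure D5:**
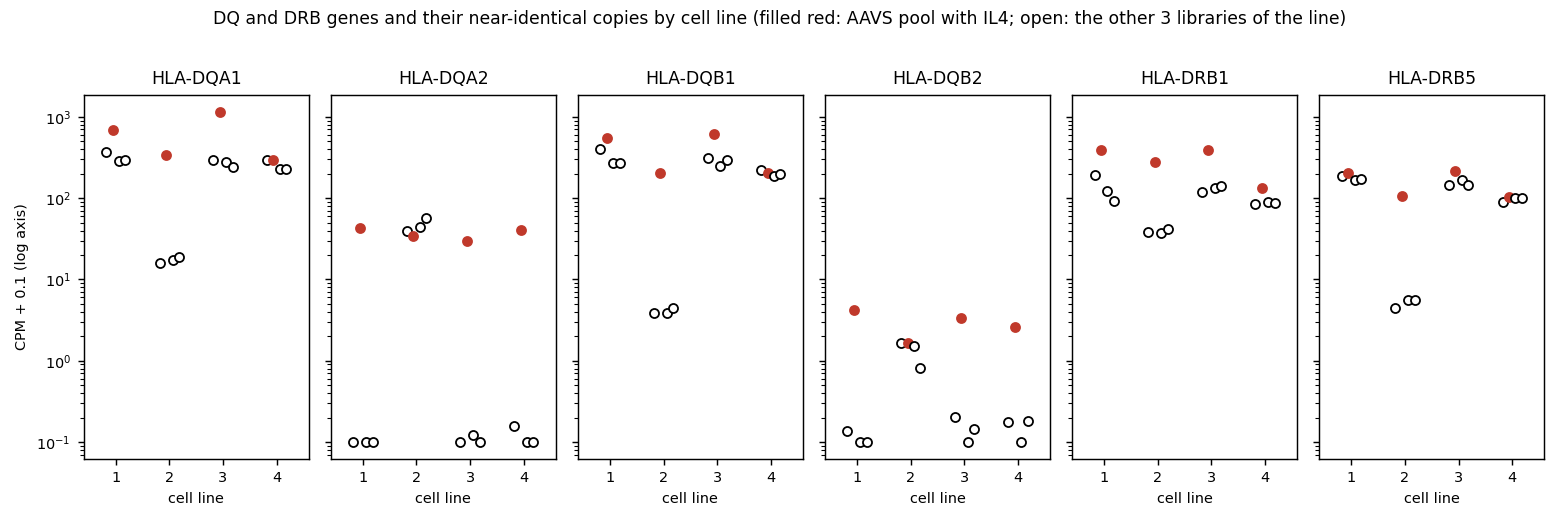
CPM + 0.1 (log axis) of HLA-DQA1, HLA-DQB1 and HLA-DRB1 and of the related genes HLA-DQA2, HLA-DQB2 and HLA-DRB5 by line, with the AAVS IL4 library filled in red and the other 3 libraries of the line open. HLA-DQA2 reaches 29.4 to 43.3 CPM in the AAVS IL4 libraries of lines 1, 3 and 4 and at most 0.0573 elsewhere in these lines, and HLA-DQB1, HLA-DQA1 and HLA-DRB5 of line 2 step up in the AAVS IL4 library.

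Of the other class II genes, 5 to 7 of 10 were tested and 0 called in each of the 5 comparisons. HLA-DQA2 and HLA-DQB2 passed the filter only in comparisons with the AAVS IL4 libraries, and their levels are those given above. HLA-DOA, a chain of the HLA-DM inhibitor HLA-DO, had a fitted value of 0.66 on the log2 scale (standard error 0.24, adjusted p = 0.255 from edgeR) with IL4 in the AAVS pools and of -0.89 (standard error 0.23, adjusted p = 0.0736) for CREBBP against AAVS with IL4. Its partner HLA-DOB had 0.56 and -0.46 (adjusted p = 0.332 and 0.312).

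The factors that bind the X and Y boxes (RFX5, RFXAP, RFXANK, NFYA, NFYB, NFYC, CREB1 and ATF1) were all tested, and 0 of 8 were called in each of the 5 comparisons. RFXAP, a subunit of the RFX complex, had the largest value for CREBBP against AAVS with IL4 (1.2, standard error 0.34, adjusted p = 0.0847 from edgeR) and 0.78 (adjusted p = 0.330) at baseline, in both cases opposite in sign to the median of the class II genes. The levels of the X- and Y-box factors in the AAVS pools had a median log2 fold change of -0.27 with IL4.

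Among 10 regulators of CIITA, 2 were called higher with IL4 in the AAVS pools, IRF4 and PRDM1. IRF4, a factor of activated B cells and plasma cells, was at 49.3 to 362 CPM in AAVS IL4 and at most 1.25 CPM in the other 12 libraries (7.77 on the log2 scale, adjusted p = 0.000594 from edgeR). PRDM1, a known repressor of CIITA, was at 38.0, 20.5, 80.7 and 2.03 CPM in AAVS IL4 and at most 0.172 CPM in the other 12. It passed the filter only in comparisons with the AAVS IL4 libraries, where it is high, so that its calls (adjusted p = 0.0293 here and 0.0121 for CREBBP against AAVS with IL4, from edgeR) add nothing to these levels. IRF4 did not pass the filter within the CREBBP pools, so in CREBBP against AAVS pools with IL4 it was tested only because it is high in AAVS IL4. Its lower value there (-8.43, adjusted p = 0.0125) and its difference in response (-6.63, adjusted p = 0.000115), both from edgeR, thus add nothing to its levels. IRF1, which acts on CIITA after interferon, had 1.12 with IL4 in the AAVS pools (adjusted p = 0.156). With IL4 in the CREBBP pools 0 of the 8 regulators tested were called, with IRF4 and PRDM1 not tested, and at baseline 0 of 9, with PRDM1 not tested.

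Of 8 coactivators and corepressors, NCOA1, a partner of CREBBP, was the only 1 called, at 1.58 in the AAVS pools with IL4 (adjusted p = 0.0170 from edgeR), -1.62 for CREBBP against AAVS with IL4 (adjusted p = 0.0296) and -1.41 for the difference in response (adjusted p = 0.0411). Of 15 genes of antigen processing and trafficking, 14 or 15 were tested and 0 called in the 5 comparisons. MARCHF1, the ligase that marks class II molecules for degradation, had -0.91 for CREBBP against AAVS at baseline (standard error 0.23, unadjusted p = 0.00245, adjusted p = 0.221 from edgeR). Among 6 costimulation genes CD80, a ligand of CD28, rose in the AAVS pools with IL4 (5.26, adjusted p = 0.0232 from edgeR), and CD80 (-5.47, adjusted p = 0.0237) and LY75 (-2.68, adjusted p = 0.0273) fell in CREBBP against AAVS with IL4, with 0 called in the other 3 comparisons. The calls in these lists all lie in comparisons that use the AAVS IL4 libraries, beside the marker levels given above, and they were not tested apart from them.

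The 10 genes were also compared in their pattern over libraries, as log2 CPM centred within each line, where the points share lines and depth. Over 16 libraries each member had a Pearson r of 0.715 (CD74) to 0.946 (HLA-DRB1) with the mean of the 10, which includes the member itself, and CIITA had 0.879. By Spearman's rho CD74 had 0.379 and CIITA 0.656. Over the 12 libraries outside AAVS IL4, r was 0.691 to 0.933 for the HLA genes, -0.089 for CIITA and -0.198 for CD74. In those libraries CIITA had r of -0.503 with HLA-DRA and 0.445 with CD74, against 0.757 and 0.851 over all 16. The correlations use TMM-scaled CPM. By it, the HLA genes were at 1.48-fold to 2.39-fold of baseline in the CREBBP IL4 library of line 2, and CIITA and CD74 at 0.78-fold and 0.791-fold. By CPM on library totals the HLA genes were at 1.0-fold to 1.62-fold there, and CIITA and CD74 at 0.528-fold and 0.536-fold. How far this 1 library sets the r over 12 libraries was not tested. Among 9071 genes with a mean of at least 10 CPM, the 5 outside the members most like their mean were OTUD1 (r = 0.964), SLC30A4 (0.953), JAK2 (0.947), HLA-DOA (0.944) and HCP5 (0.943). The 5 most like CIITA were PRKCE (0.987), HIVEP2 (0.971), ZBTB4 (0.970), LY75 (0.969) and NFKBIE (0.963). By rank correlation 1 of the 5 genes in each list, OTUD1 and PRKCE, stayed among the 5 highest. Neither list shared a gene with its counterpart over the 12 libraries, which for CIITA began with COG8 (0.978) and PLCG2 (0.976) and for the mean with SMIM7 (0.965) and ALOX5AP (0.962).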

How the data were processed

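Paired-end reads were trimmed (Cutadapt 2.3) and aligned to GRCh38 (STAR 2.7.8a) by the authors, who deposited the estimated counts that RSEM 1.3.3 gave per gene, in whole numbers and not normalized (versions from the submitters' processing notes). The methods average technical replicates before analysis and refer the cell lines to the same procedure. From these counts CPM was computed on the library total, with lengths and positions from GENCODE release 44. The 4 rows that name no gene held 0 counts. Differences were tested with edgeR 4.0.16 in R 4.3.3 (quasi-likelihood test, TMM factors, filterByExpr, Benjamini-Hochberg over all genes tested, threshold 0.05), with the line as a block or, for the difference in response, a term for each pool. Alternatives were other scalings, other filters, no block, all 16 libraries in 1 fit, each line left out and the Wald test of DESeq2 1.42.0, and, chosen after seeing the data, TMM-scaled CPM for levels and line folds.

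The related lists were chosen with earlier results of these data known, and the motifs from knowledge of these promoters. The members were taken by gene symbol, as given above. Every member is described. From each related list the text names at most 4 genes of smallest p per comparison, and further genes (IGHM, IGHD, LYZ, HBB, HLA-DRB5, HLA-DQB1-AS1 in single libraries) were chosen after their values were seen.

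Libraries were paired by line, since equal numbers come from the same cell line. Deviations from group means correlated within lines with median r of 0.409, 0.685, 0.227 and 0.596 for lines 1 to 4, with -0.0782 for 1 pair of line 3. No libraries of a group were copies (chi-square per degree of freedom at least 98.7). Each group has 1 library per line. With the line or pool as a block, the p-values measure how far the change within a line or pool varies over the lines. Noise of the single libraries is part of that spread. The tests were also run on simulated counts with the same dispersion for all genes and no difference between lines. Such counts cannot show how the tests behave with lines that differ as these do.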

Additional observations from a re-analysis of the deposited data

Results flagged for a closer look

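In CREBBP IL4, CIITA of line 2 (122 CPM) lay apart from the other 3 lines, of which the nearest had 152 CPM. The gap was 0.831 of the range of the group, above Dixon's critical value for 4 samples. It was the 1 group of 40 flagged among 10 genes and 4 groups, where chance flags about 1 in 20. By TMM-scaled CPM, chosen after seeing the data, CIITA was at 168, 168, 164 and 148 in lines 1 to 4 of this group, and 0 of the 40 groups were flagged.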

How the results depend on the processing

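The counts of members called are given with the share of all genes called in either direction. For IL4 in the AAVS pools 1 member was called (2.4%). There were 0 with DESeq2 size factors (2.46%), 2 with total counts (2.11%), 2 without a filter (4.85%) and 0 with 10 counts in every library (0.174%). Without the replicate block there were 0 (2.3%), with all 16 libraries 5 (5.79%) and with the DESeq2 Wald test 7 (10.2%). Whichever line was left out, there were 0 (0.31% to 4.93%). For CREBBP against AAVS with IL4, 3 were called (4.39%), against 6 with total counts (6.8%) and 6 without a filter (9.34%). With all 16 libraries there were 8 (20.0%), with DESeq2 7 (21.2%) and without the replicate block 2 (2.76%). When a line was left out there were 0 to 4 (0.124% to 12.4%). For the difference in response 0 were called (0.638%), against 3 without a filter (3.0%) and 2 with DESeq2 (5.67%). In these comparisons no member changed sign under any alternative run.

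The medians of the members without the replicate block were 1.07 (IL4, AAVS), -0.098 (IL4, CREBBP), -0.16 (baseline), -1.29 (with IL4) and -0.99 (difference). The median for IL4 in the CREBBP pools moved from 0.00047 to between -0.17 (without line 2) and 0.12 (without line 3). The baseline median moved from -0.17 to -0.25 with upper-quartile factors and -0.27 with total counts.

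Changes of sign were found in the comparisons where no member was called. For IL4 in the CREBBP pools they were, for HLA-DPB1, 0.025 with DESeq2 size factors, 0.0035 without a filter, 0.00033 with 10 counts, 0.096 with all 16 libraries and 0.025 with DESeq2. For HLA-DPA1 they were -0.011 with upper-quartile factors, -0.044 with total counts and -0.039 without the replicate block, for HLA-DQA1 -0.018 with total counts, -0.14 without the replicate block and -0.0028 with all 16 libraries, and for HLA-DMA -0.0028 with total counts and -0.036 without the replicate block. Leaving out a line gave -0.17 to 0.39 for HLA-DRA, -0.24 to 0.12 for HLA-DRB1, -0.17 to 0.17 for HLA-DPA1, -0.23 to 0.14 for HLA-DPB1, -0.16 to 0.20 for HLA-DQA1, -0.17 to 0.15 for HLA-DMA and -0.29 to 0.0097 for HLA-DMB.

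At baseline, CD74 changed sign to -0.058 with upper-quartile factors, -0.078 with total counts, -0.022 without a filter and -0.00094 with 10 counts, and HLA-DRB1 to -0.079, -0.099, -0.042 and -0.022 under the same settings, to -0.067 without the replicate block and to -0.029 with all 16 libraries. HLA-DPA1 was at 0.028 without the replicate block. Leaving out a line gave -0.023 to 0.053 for CD74, -0.13 to 0.20 for HLA-DRB1, -0.14 to 0.10 for HLA-DPA1 and -0.16 to 0.0081 for HLA-DQA1. The causes were not tested.

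Over all genes, the count called for IL4 in the AAVS pools was 488, against 25 with 10 counts in every library, 1851 without a filter, 1270 with all 16 libraries, 2062 with DESeq2 and 64 to 1035 without a line. With IL4 the 859 became 540 without the replicate block, 1331 with total counts, 3466 without a filter, 4393 with all 16 libraries, 4154 with DESeq2 and 25 to 2547 without a line. For the difference the 140 became 2 without the replicate block, 69 with 10 counts, 1191 without a filter, 1099 with DESeq2 and 16 to 264 without a line. The 0 at baseline became 586 without a filter, 511 with DESeq2 and 515 without line 2, and the 0 for IL4 in the CREBBP pools became 40 without a filter and 1 with DESeq2. Total counts in place of TMM moved the median of all genes by -0.275 for CREBBP against AAVS with IL4.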
